A study of Mus musculus with 4 samples.

Results

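The nuclear-encoded genes of the mitochondrial respiratory chain were followed in RNA-seq libraries of mouse calvarial bone. They were taken by name, as every gene symbol in the deposited table that starts with Nduf, Sdh, Uqcr, Cox4, Cox5, Cox6, Cox7, Cox8 or Atp5, and 94 of the 23946 genes in the table met that rule. Of these, 35 encode subunits of complex I, 4 of complex II, 8 of complex III, 11 widely expressed subunits of complex IV and 15 of complex V. A further 8 encode isoforms of complex IV subunits that are known mainly from particular tissues, and 12 are assembly factors or other genes that share the prefix. Ndufs5, a further complex I subunit, was listed near 0 in 3 of the 4 libraries and is described apart, so that 93 genes enter the counts below. Of these, 91 reached 1 FPKM in at least 1 library. Cox7b2 and Cox8c did not.

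The libraries came from the frontal bone, which is of neural crest origin, and the parietal bone, which is of mesodermal origin, of C57BL/6J mice at postnatal day 21. The mice were wild type or Twist1+/-, that is, they carried 1 working copy of the gene for the transcription factor Twist1 in every cell, and 12 mice were used per strain, with the number of animals behind each library not given in the labels. There was 1 library for each genotype and bone, 4 in all, so no difference below could be set against a spread between replicates and no test was made. Expression was given as FPKM (fragments counted per kilobase of transcript length and scaled to the mapped total), which is corrected for transcript length and allows levels of different genes to be compared. Bone tissue as described in the study held the periosteum above and the dura mater below the bone plate, so each library is a mixture of cell types, and fewer cells of a type and less RNA per cell cannot be told apart in it.

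The respiratory chain passes electrons from NADH (complex I) and succinate (complex II) through complex III and cytochrome c to oxygen (complex IV), pumps protons at complexes I, III and IV, and lets the proton gradient drive ATP synthesis at complex V. Most of its subunits are encoded in the nucleus, and a small core is encoded in the mitochondrial genome. Several complex IV subunits exist as a widely expressed form and a form found in heart and skeletal muscle. In bone, osteoclasts are known for their many mitochondria. Genes of the mitochondrial genome were not analysed here.

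The libraries were first compared with their labels. Twist1 was at 59.0 FPKM (wild-type frontal), 52.5 (wild-type parietal), 30.4 (Twist1+/- frontal) and 50.7 (labelled Twist1+/- parietal). The last value is close to that of wild-type parietal bone, which goes against its label, so that library is named by its label and every direction drawn from it rests on that label. All 8 osteoblast and osteocyte markers were detected in every library. Summed over each list, 12 skeletal muscle markers ranged from 132 to 4382 FPKM across the libraries, 8 osteoclast markers from 2614 to 9181, 6 neutrophil markers from 5263 to 12029, 6 neuron markers from 34.8 to 153 and 6 nasal and airway markers from 13.5 to 1903. Depth cannot be read from FPKM values, and no intervals are given.

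Respiratory chain genes as a whole were highest in wild-type parietal bone. The 93 genes took 2.33% of all summed FPKM (wild-type frontal), 3.59% (wild-type parietal), 2.42% (Twist1+/- frontal) and 2.85% (labelled Twist1+/- parietal). The frontal bones of both genotypes lay close together and below both parietal libraries. Of the 91 genes that reached 1 FPKM, 78 (85.7%) had their highest value in wild-type parietal bone, against 35.5% of all 14760 genes that reached 1 FPKM in any library. The other 13 were highest in the parietal library with the Twist1+/- label, and none was highest in a frontal library. Both parietal libraries were above both frontal libraries in 80 of the 91 (87.9%), against 24.6% of all genes.

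**Figure D1:**
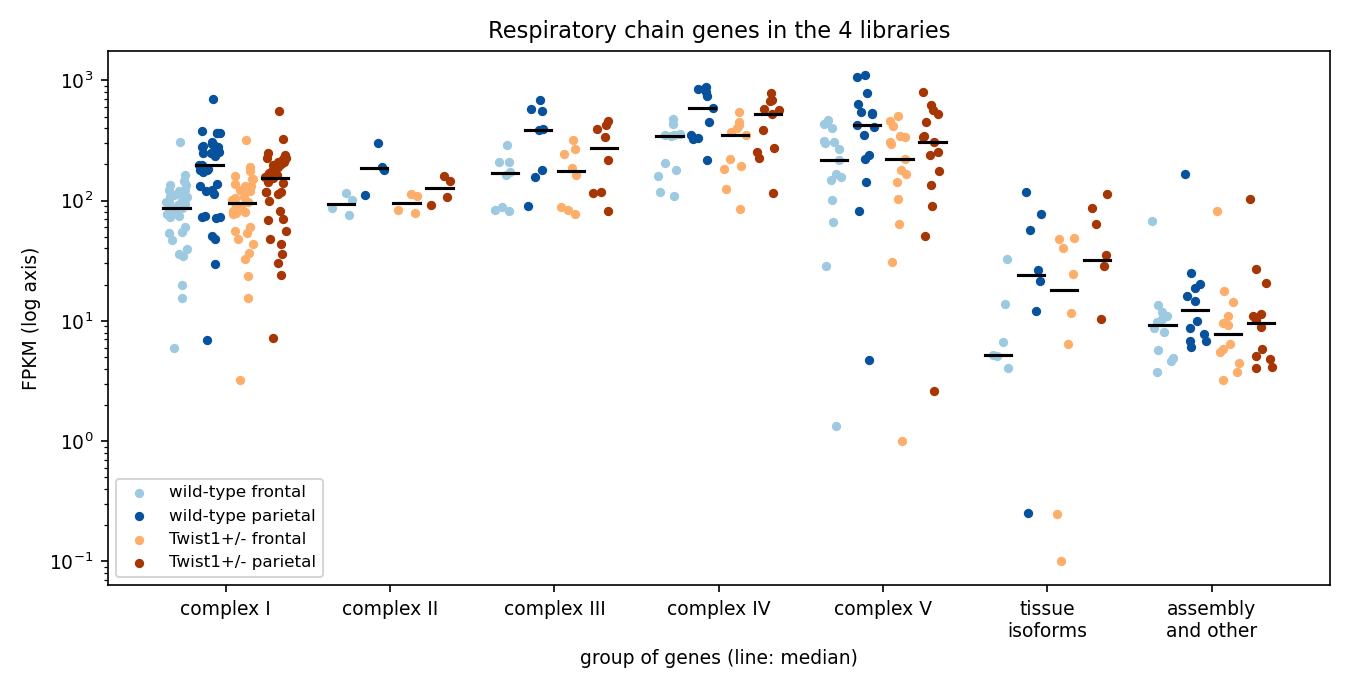
FPKM (log axis) of each of the 93 genes in the 4 libraries, by complex; each point is a gene in 1 library, lines are medians, and values listed at 0 are not drawn. In complexes I to V the median is highest in wild-type parietal bone, second in the parietal library with the Twist1+/- label and lower in both frontal libraries.

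Levels followed the complexes. The median subunit of complex I, the NADH dehydrogenase, was at 87.0 FPKM (wild-type frontal), 198 (wild-type parietal), 95.8 (Twist1+/- frontal) and 156 (labelled Twist1+/- parietal). The median widely expressed subunit of complex IV, cytochrome c oxidase, was at 347, 586, 354 and 522 FPKM in the same order. Complex IV was thus the most abundant of the 5 by its median in all 4 libraries. The lowest median was that of complex II, succinate dehydrogenase, in wild-type parietal bone (186 FPKM) and in the parietal library with the Twist1+/- label (126), while complex I lay slightly below it in both frontal bones. Assembly factors and related genes were far lower, with medians between 7.83 and 12.3 FPKM.

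Within each complex the levels of the subunits spread widely. In complex I, Ndufa3, a small accessory subunit, was highest at 309, 706, 320 and 557 FPKM (wild-type frontal, wild-type parietal, Twist1+/- frontal, labelled Twist1+/- parietal, the order kept wherever 4 values follow). Ndufab1, the mitochondrial acyl carrier protein, was lowest at 5.95, 6.90, 3.24 and 7.24 FPKM. In complex II, Sdhd, a membrane anchor, was highest at 115, 301, 113 and 160 FPKM and Sdha, the flavoprotein that oxidises succinate, was lowest by its mean at 86.9, 111, 83.7 and 91.9 FPKM. Sdhd therefore varied much more between the bones than Sdha did. The other 2 subunits did not follow that split. Sdhb, the iron-sulfur subunit, had a log2 ratio of 1.34 between the wild-type bones, and Sdhc, the other anchor, one of 0.85.

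Complexes III to V had the same kind of spread. In complex III, Uqcrh, the hinge protein, was highest by its mean at 292, 691, 320 and 428 FPKM. Uqcrq was above it in the parietal library with the Twist1+/- label (462 FPKM). Uqcrc1, a large core protein, was lowest by its mean at 82.9, 89.6, 87.9 and 115 FPKM. Uqcrc2 was below Uqcrc1 except in wild-type parietal bone, at 82.0, 181, 78.0 and 81.3 FPKM. In complex IV, Cox4i1, the main form of subunit 4, was highest at 479, 880, 542 and 783 FPKM, and Cox7b was lowest at 110, 216, 84.5 and 116 FPKM. In complex V, Atp5e, the epsilon subunit of the F1 part, was highest by its mean at 432, 1067, 456 and 800 FPKM. Atp5b was above it in wild-type frontal bone (464 FPKM). Atp5k was above it in wild-type parietal (1106) and Twist1+/- frontal bone (501). Atp5l, subunit g of the membrane part, was listed at only 1.35, 4.74, 1.001 and 2.63 FPKM, but its transcript is largely repeated in the genome (85.8% of windows of 75 bases have an exact copy elsewhere; chr9:44721333-44728825 in mm9, minus strand). Reads of such a gene can be split between copies, so its level is uncertain.

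The difference between parietal and frontal bone in wild-type mice addressed how bones of different embryonic origin compare. Here 78 of the 79 subunits that reached 1 FPKM were higher in parietal bone, with a median log2 ratio of 1.17 (2.25-fold), while the median of all 14214 genes compared was -0.01. All 81 subunits summed to 11390.5 FPKM in frontal and 24872.8 in parietal bone, or 2.30% and 3.55% of all summed FPKM. The totals of the libraries thus differ, and the share rose less than the sum. Fold sizes and counts here and below depend on that scale, as ratios were formed without rescaling to a common total. Of the 91 genes, 76 were higher by more than 1.5-fold, against 23% of all genes, and 1 was lower by more than 1.5-fold, against 25.6%. The medians of the complexes lay close together, at 1.17 for complex I, 1.09 for complex II, 1.20 for complex III, 1.06 for complex IV and 1.22 for complex V. Assembly factors and other genes had a lower median of 0.71.

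Subunits of the same complex were not all shifted alike. In complex I the 28 accessory subunits had a median log2 ratio of 1.18 and the 7 core subunits, which carry the electrons, one of 0.72. In complex III the 5 small subunits had a median of 1.24 and the 3 core and iron-sulfur subunits one of 0.83. In complex V the 7 subunits of the stalk and membrane part had a median of 1.31 and the 3 genes of the c ring one of 1.09. The 5 subunits of the F1 part, which holds the catalytic sites, had a median of 0.53. They were split, with Atp5c1 at 1.37 and Atp5e at 1.30, and Atp5a1 at 0.45, Atp5b at 0.24 and Atp5d at 0.53. In each of these complexes the core or F1 part had the smallest median. Median transcript lengths differed mostly along the same lines. They were 1540 bases for core and 891.5 for accessory subunits of complex I, and 1655 and 535 for core and small subunits of complex III. In complex V they were 1735 for F1, 809 for the stalk and membrane part and 723 for the c ring. The c ring had the shortest median there but a smaller shift than the stalk and membrane part.

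Past 3-fold there were 7 of the 91 genes, all higher in wild-type parietal bone. That is 7.69%, against 13.3% of all genes past 3-fold in either direction and 4.07% higher by more than 3-fold. The largest ratios belonged to 3 muscle isoforms of complex IV, which are described further on. The others were Ndufc2 (107.8 FPKM in frontal and 362 in parietal bone, 3.36-fold), Ndufc1 (122 and 381, 3.13-fold) and Ndufa13 (81.7 and 251, 3.07-fold), all accessory subunits of complex I, and the uncertain Atp5l (3.52-fold). Ndufa13 is also known as GRIM-19. Ndufa13 and Ndufc2 had no transcript window repeated elsewhere, and 4.17% of the windows of Ndufc1 were.

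Some subunits hardly differed between the wild-type bones. Uqcrc1 was at 82.9 FPKM in frontal and 89.6 in parietal bone, a 1.08-fold difference. Atp5b, the catalytic beta subunit of ATP synthase, was at 464 and 546 FPKM, a 1.18-fold difference. The only subunit that was lower in parietal bone was Cox6b2, a form of subunit 6b known from testis, at 32.8 FPKM in frontal and 21.5 in parietal bone. Among the other genes, Atp5sl was lower too, with a log2 ratio of -0.18.

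**Figure D2:**
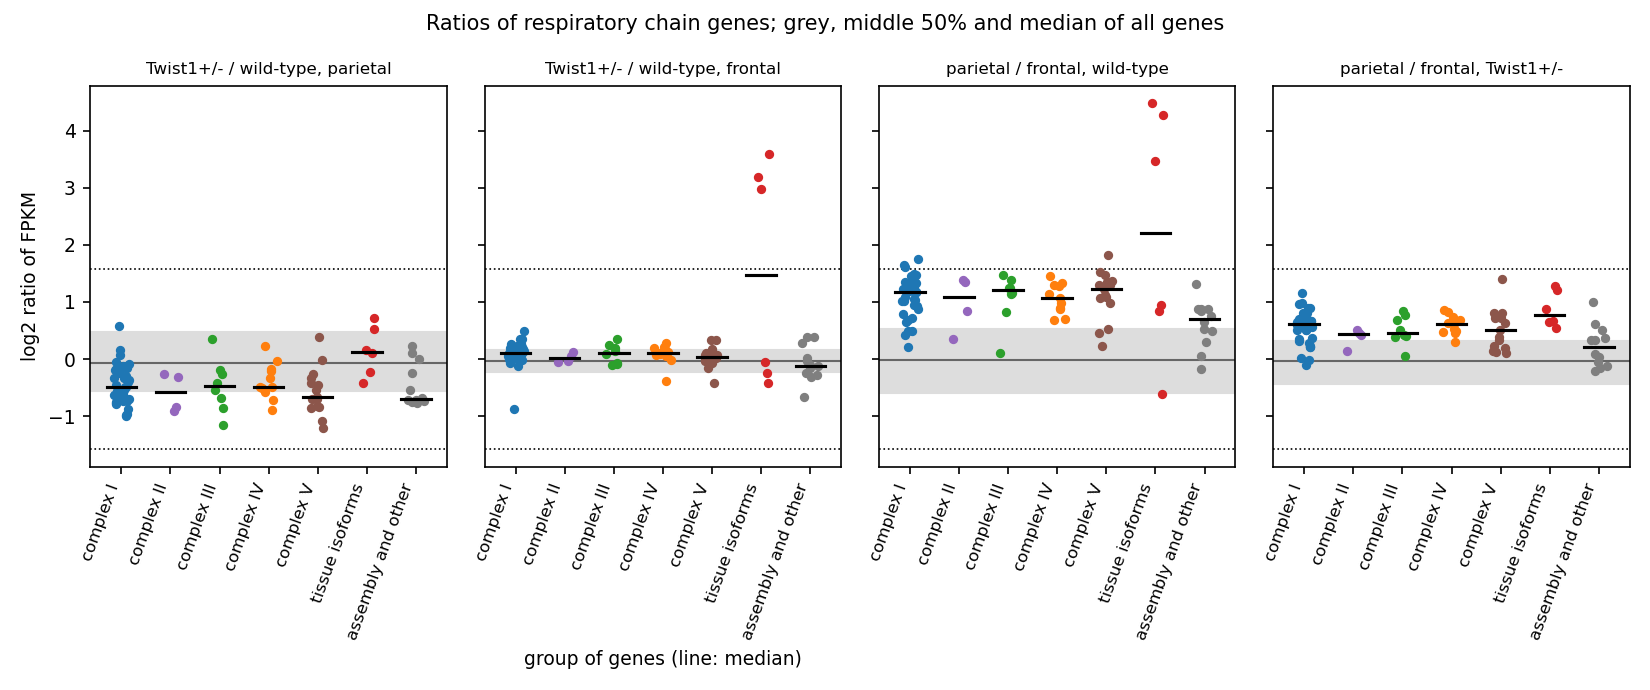
Log2 ratio of FPKM of each gene by group in the 4 comparisons; points are genes, short black lines are group medians, the grey band and line are the middle 50% and the median of all genes, and dotted lines mark 3-fold. The medians of complexes I to V lie above the grey band for parietal against frontal wild-type bone, from 1.06 to 1.22, and near 0 for the frontal genotypes, from 0.01 to 0.11.

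In Twist1+/- mice the same comparison of bones gave the same direction with a smaller size. The library labelled Twist1+/- parietal bone was above Twist1+/- frontal bone in 77 of 79 subunits, with a median log2 ratio of 0.60 (1.52-fold) beside -0.03 for all 14305 genes. Of the 91 genes, 44 were higher by more than 1.5-fold, against 11.6% of all genes, none was lower by as much, against 18.9%, and none passed 3-fold, against 4.09%. The medians were 0.62 for complex I, 0.43 for complex II, 0.46 for complex III, 0.61 for complex IV and 0.50 for complex V. Whether the bones differ less in Twist1+/- mice than in wild-type mice was not tested, since that needs replicates.

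Single genes at the ends of that comparison had these values. Ndufa4l2, a relative of the complex IV subunit Ndufa4 that is known to be induced by low oxygen, was at 11.7 FPKM in Twist1+/- frontal and 28.5 in the parietal library with the Twist1+/- label, 2.44-fold higher. Ndufaf2, a complex I assembly factor, was at 5.52 FPKM and 11.003 FPKM, 1.99-fold higher. At the other end Ndufs1, the largest iron-sulfur subunit of complex I, was at 32.9 and 30.4 FPKM, Ndufs4 at 36.4 and 36.1 FPKM and Ndufa10 at 47.5 and 48.2 FPKM. These last 3 complex I subunits hardly differed between the libraries.

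In parietal bone most subunits were lower in the library labelled Twist1+/- than in wild type. Of the 79 subunits, 69 were lower and 10 higher, and the median log2 ratio was -0.46 (1.38-fold lower) beside -0.06 for all 13914 genes compared. Of the 91 genes, 36 were lower by more than 1.5-fold, against 23.8% of all genes, and 1 was higher by more than 1.5-fold, against 21.2%. None passed 3-fold, against 8.19% of all genes. The medians were -0.48 for complex I, -0.57 for complex II, -0.48 for complexes III and IV, -0.66 for complex V and -0.70 for assembly factors and other genes.

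The members lowest beside their wild-type value were Atp5c1, Uqcrc2 and Atp5o. Atp5c1, the gamma subunit that turns inside ATP synthase, was at 408 FPKM in wild-type parietal and 177 in the parietal library with the Twist1+/- label, 2.30-fold lower. Uqcrc2, the partner of Uqcrc1 in the core of complex III, was at 181 and 81.3 FPKM, 2.22-fold lower, while Uqcrc1 itself was at 89.6 and 115 FPKM, 1.28-fold higher. Atp5o, which joins the head of ATP synthase to its stalk, was at 538 and 253 FPKM, 2.13-fold lower. In all 3 the lower value was close to that of frontal bone, which was 158 FPKM for Atp5c1, 82.0 for Uqcrc2 and 218 for Atp5o in wild type.

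A few subunits were higher in the parietal library with the Twist1+/- label. Cox6b2 was at 21.5 FPKM in wild-type parietal and 35.4 in the labelled library, 1.65-fold higher. Ndufs7, which holds an iron-sulfur cluster next to the ubiquinone site of complex I, was at 120 and 178 FPKM, 1.49-fold higher. Cox8b, a muscle isoform, was at 78.1 and 113 FPKM, 1.44-fold higher. Atp5d, Cox5a, Ndufb10 and Uqcrc1 were also among the 13 genes that had their highest value in that library.

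In frontal bone the genotypes were nearly alike. The median log2 ratio of Twist1+/- against wild-type frontal bone was 0.09 (1.07-fold) over 79 subunits, of which 56 were higher and 23 lower, beside -0.04 for all 14341 genes compared. Of the 91 genes, 3 were higher by more than 1.5-fold, against 8.01% of all genes, and 2 were lower by more than 1.5-fold, against 7.23%. Past 3-fold there were Cox6a2, Cox7a1 and Cox8b, all higher, or 3.30% against 3.89% of all genes in either direction and 3.17% higher. The lower genes were Ndufab1 (5.95 to 3.24 FPKM) and Ndufaf2 (8.73 to 5.52 FPKM). Among subunits at 10 FPKM or more, Cox6b2 was 1.34-fold, Cox7b 1.30-fold and Ndufa4l2 1.18-fold lower.

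The tissue isoforms of complex IV were the genes with the widest range. Cox6a2, the muscle form of subunit 6a (chr7:135348950-135349880 in mm9, minus strand), was at 5.23 FPKM (wild-type frontal), 117 (wild-type parietal), 47.7 (Twist1+/- frontal) and 87.3 (labelled Twist1+/- parietal). Cox7a1, the muscle form of subunit 7a (chr7:30969190-30971047, plus strand), was at 5.13, 57.1, 40.5 and 63.6 FPKM. Cox8b, the muscle form of subunit 8 (chr7:148084842-148086345, minus strand), was at 4.05, 78.1, 48.8 and 113 FPKM. All 3 were lowest by far in wild-type frontal bone, and none of their transcript windows had an exact copy elsewhere. Twist1+/- frontal bone was 9.11-fold above wild-type frontal bone for Cox6a2, 7.90-fold for Cox7a1 and 12.1-fold for Cox8b, and wild-type parietal bone was 22.3-fold, 11.1-fold and 19.3-fold above it.

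Their widely expressed counterparts varied far less. Cox6a1 was at 360, 586, 354 and 572 FPKM, Cox7a2 at 178, 448, 194 and 272, and Cox8a at 431, 798, 450 and 688, in the same order of libraries. The muscle form thus made up 1.43% of the Cox6a1 and Cox6a2 sum (wild-type frontal), 16.6% (wild-type parietal), 11.9% (Twist1+/- frontal) and 13.2% (labelled Twist1+/- parietal). For Cox7a1 the share of the pair was 2.80%, 11.3%, 17.3% and 18.95%, and for Cox8b it was 0.931%, 8.91%, 9.80% and 14.0%. In each pair the widely expressed form was the larger one in all 4 libraries.

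Skeletal muscle markers were, like these isoforms, lowest in wild-type frontal bone. The 12 markers on the list, among them Acta1, Ckm, Mylpf and Tnnt3, summed to 132 FPKM (wild-type frontal), 4382 (wild-type parietal), 1426 (Twist1+/- frontal) and 1961 (labelled Twist1+/- parietal). All 12 were higher by more than 1.5-fold in Twist1+/- than in wild-type frontal bone, against 8.01% of all genes. Their median log2 ratio was 3.47. Between the wild-type bones, 11 of 11 that reached 1 FPKM were more than 3-fold higher in parietal bone, against 4.07% of all genes. The median was 5.06. The parietal genotypes differed otherwise. There 5 of the 12 markers were lower by more than 1.5-fold in the labelled library (23.8% of all genes) and 2 higher (21.2%). Their median was -0.47, beside -0.42 for Cox6a2, 0.16 for Cox7a1 and 0.53 for Cox8b. Between the Twist1+/- bones the marker median was 0.55. Markers of slow or cardiac muscle were low, with sums from 3.08 to 32.4 FPKM, and brown adipocyte markers, including Ucp1, summed to between 0.881 and 2.22 FPKM. Over the 4 libraries, the 5 genes whose profile of log2(FPKM + 1), centred on its mean, lay closest to the mean profile of Cox6a2, Cox7a1 and Cox8b were Myoz1, Acta1, Myot, Ckmt2 and Myh1, at distances from 0.341 to 0.586. The part of muscle in the levels of the isoforms was not tested.

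**Figure D3:**
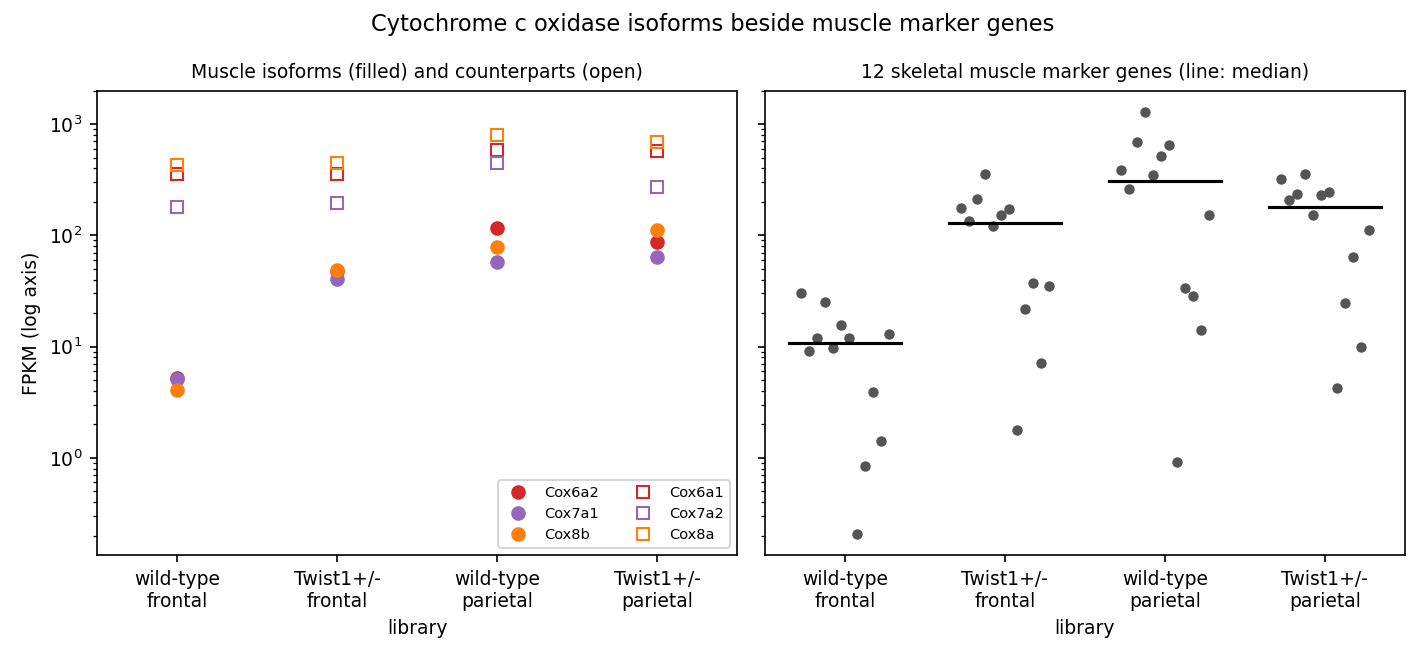
FPKM (log axis) in each library of 3 muscle isoforms of complex IV (filled) and their widely expressed counterparts (open), left, and of 12 skeletal muscle markers, right, where each point is a gene and the line is the median. The filled points and the markers are lowest in wild-type frontal bone, where the isoforms are at 4.05 to 5.23 FPKM, while the open points stay between 178 and 798 FPKM.

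The remaining isoforms behaved differently from the muscle forms. Cox4i2, the form of subunit 4 known from lung and low oxygen, was at 6.70, 12.0, 6.46 and 10.3 FPKM and made up between 1.18% and 1.38% of the subunit 4 pair in every library. Ndufa4l2 was at 13.8, 26.6, 11.7 and 28.5 FPKM, or 2.67% to 5.17% of its sum with Ndufa4. Cox6b2 made up 8.59% of its pair (wild-type frontal), 2.46% (wild-type parietal), 6.20% (Twist1+/- frontal) and 5.81% (labelled Twist1+/- parietal). Cox7b2 and Cox8c, both known from testis, were listed at 0 in at least 2 libraries and did not exceed 0.254 FPKM. The widely expressed Cox6b1 was at 349, 853, 370 and 575 FPKM and Ndufa4 at 352, 736, 427 and 522 FPKM. Cox7a2l, a relative of Cox7a2 that joins complexes III and IV into supercomplexes, was at 67.1, 167, 81.6 and 102 FPKM, with 43.9% of its windows found elsewhere. Of the 3 genes for the same c ring protein, Atp5g1 was at 66.6, 142, 63.3 and 89.7 FPKM and Atp5g2 at 28.6, 82.1, 30.8 and 50.7 FPKM. Atp5g3 gave 70.3% to 78.9% of the sum, and all windows of Atp5g2 had exact copies elsewhere, so its own share is uncertain.

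The promoters of Cox7a1 and Cox8b are shown because these genes moved together, beside those of the widely expressed Cox7a2 and Cox8a, which moved less. Twist1 is a basic helix-loop-helix protein, a class that binds the E-box CANNTG. Each sequence is the 250 bases before the RefSeq start of the gene in GRCm38.p6, written 5′ to 3′ on the strand of the gene, with matches to CANNTG in capitals. Cox7a1 lies on the plus strand (chr7:30183921-30184170), Cox8b on the minus strand (chr7:140900447-140900696), Cox7a2 on the minus strand (chr9:79759854-79760103) and Cox8a on the minus strand (chr19:7217617-7217866).
Cox7a1: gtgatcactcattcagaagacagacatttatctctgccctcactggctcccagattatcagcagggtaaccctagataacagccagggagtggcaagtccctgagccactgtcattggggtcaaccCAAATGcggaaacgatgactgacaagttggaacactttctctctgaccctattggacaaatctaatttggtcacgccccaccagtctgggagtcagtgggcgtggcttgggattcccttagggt
Cox8b: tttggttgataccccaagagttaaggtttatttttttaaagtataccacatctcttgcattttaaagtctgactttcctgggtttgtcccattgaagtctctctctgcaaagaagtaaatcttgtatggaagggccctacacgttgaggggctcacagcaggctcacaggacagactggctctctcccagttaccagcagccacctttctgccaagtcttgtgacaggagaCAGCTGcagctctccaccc
Cox7a2: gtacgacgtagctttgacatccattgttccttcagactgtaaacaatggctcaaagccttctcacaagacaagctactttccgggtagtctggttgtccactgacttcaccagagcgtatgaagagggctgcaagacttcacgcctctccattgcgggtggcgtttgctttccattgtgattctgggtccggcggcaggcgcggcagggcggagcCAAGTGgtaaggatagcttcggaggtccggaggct
Cox8a: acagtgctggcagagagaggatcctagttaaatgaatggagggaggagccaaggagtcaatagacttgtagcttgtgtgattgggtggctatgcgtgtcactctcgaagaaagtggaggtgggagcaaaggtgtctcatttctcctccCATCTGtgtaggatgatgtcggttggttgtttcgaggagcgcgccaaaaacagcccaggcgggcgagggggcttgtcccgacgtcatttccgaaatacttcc
Each of the 4 held 1 match in these 250 bases, at position -124 from the start in Cox7a1, -19 in Cox8b, -35 in Cox7a2 and -102 in Cox8a. An E-box match is common, being present in 72.3% of all 32851 promoter windows in the RefSeq table (250 bases before to 50 after the start, both strands searched).

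Promoters were found for 78 of the 94 genes. Among 68 windows of 63 subunit genes other than the tissue isoforms, 67.6% held CANNTG. The motif of the ETS factor family (CCGGAAG), to which the mitochondrial regulator Gabpa belongs, was in 23.5% of them and in 8.86% of all windows. The core TGCGCA of the motif of Nrf1, another regulator of respiratory genes, was in 27.9% and in 7.76%, and TATAAA was in 8.82% and in 13.6%. Neither the ETS nor the Nrf1 motif was in any of the 4 windows of tissue isoforms (Cox6b2, Cox7a1, Cox7b2 and Cox8b). With so few windows this cannot be set against the shares of all windows, and no promoter was found for Cox6a2. These are matches of letters and not sites of binding.

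Other genes of mitochondrial metabolism were compared with the subunits. Of 13 citric acid cycle genes, 7 exceeded their wild-type frontal level by more than 1.5-fold in wild-type parietal bone, against 23% of all genes. Only 1 fell short of it by as much, against 25.6%, and the median log2 ratio was 0.74. Suclg1, a subunit of succinyl-CoA synthetase, was at 43.7 and 95.02 FPKM, and Ogdh, part of the 2-oxoglutarate dehydrogenase complex, at 33.7 and 20.8 FPKM. In parietal bone 8 of the 13 were lower by more than 1.5-fold in the library labelled Twist1+/-, against 23.8% of all genes, with a median of -0.63. The medians were -0.10 between the frontal bones and 0.07 between the Twist1+/- bones. Cycs, cytochrome c itself, was at 7.26, 13.9, 6.81 and 6.66 FPKM and Cyc1, cytochrome c1 of complex III, at 97.4, 134, 99.5 and 140 FPKM.

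Factors that assemble complex IV moved less than its subunits. Of 16 such factors, 5 were higher by more than 1.5-fold in wild-type parietal than in wild-type frontal bone, against 23% of all genes. None was lower by as much, against 25.6%, and the median log2 ratio was 0.32. Between the parietal genotypes 1 was higher in the labelled library past 1.5-fold, against 21.2% of all genes, and 2 were lower, against 23.8% (median -0.14). The higher one was Sco2, which delivers copper, at 2.98 FPKM in wild-type parietal and 8.47 in the labelled library. Between the frontal bones the median was -0.07, and between the Twist1+/- bones it was 0.26 with 4 higher past 1.5-fold, against 11.6% of all genes.

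The 12 regulators of mitochondrial genes did not share the direction of the subunits. Between the wild-type bones 2 were higher in parietal bone by more than 1.5-fold, against 23% of all genes, and 3 lower, against 25.6%. These counts are near the shares of all genes, and the median log2 ratio was -0.30. Ppargc1a, a coactivator of mitochondrial biogenesis, was at 1.97, 0.841, 2.45 and 1.69 FPKM. Its relative Ppargc1b was at 1.69, 3.19, 2.46 and 4.41 FPKM and thus higher in both parietal libraries. Gabpa was at 13.0, 12.1, 11.1 and 6.91 FPKM and Tfam, which packs mitochondrial DNA, at 8.91, 11.7, 9.04 and 8.61 FPKM. Between the parietal genotypes 4 were higher in the labelled library past 1.5-fold, against 21.2% of all genes, and 2 lower, against 23.8% (median 0.18). The median was 0.04 between the frontal bones and -0.13 between the Twist1+/- bones.

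The subunit genes share short transcripts, and short genes as a class moved in the same direction. The median of the longest coding transcript in the mm9 annotation was 861 bases over the 79 subunits and 3006 bases over all genes compared between the wild-type bones. Among genes with at most 1000 bases, the median log2 ratio of wild-type parietal against frontal bone was 0.87 over 779 genes and 1.23 over 41 subunits. Among longer genes it was -0.06 over 12073 genes and 1.04 over 32 subunits, these subunit counts being without the tissue isoforms. The subunits were thus above genes of their length class in both classes. With the median of genes of similar length subtracted, the median of the subunits was 0.44, and with that of genes of similar length and level it was 0.21. The subunits themselves were among the genes of similar length and level.

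**Figure D4:**
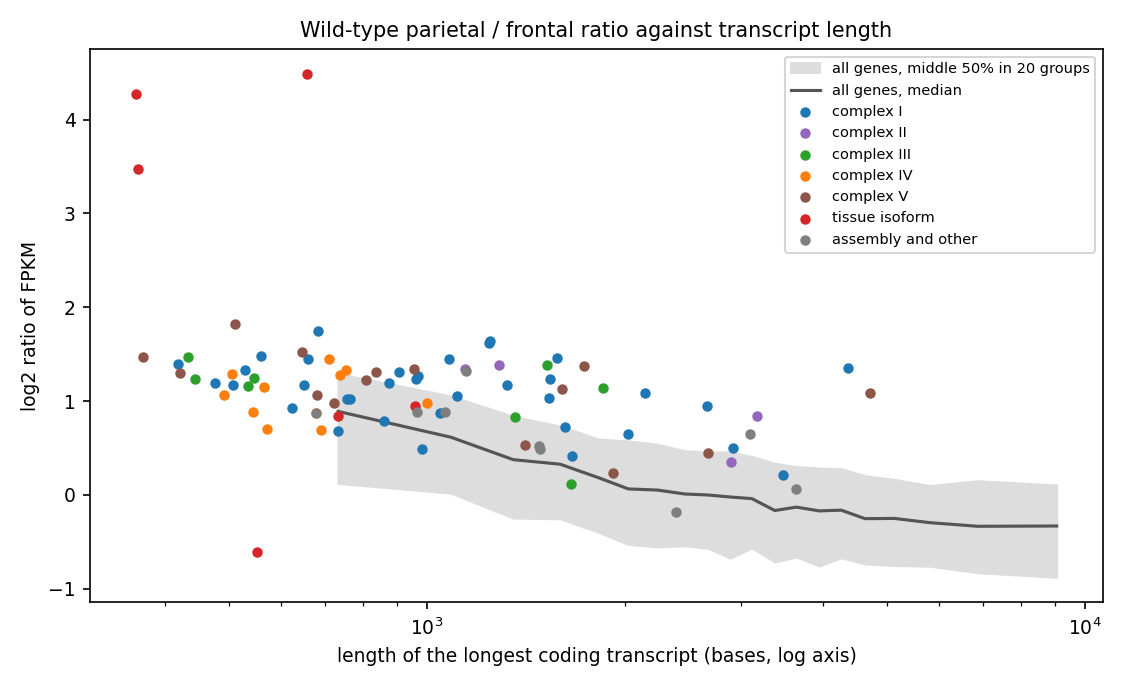
Log2 ratio of wild-type parietal against frontal FPKM (vertical) against transcript length in bases (log axis) for each gene, with the median and the middle 50% of all genes in 20 groups by length. The median of all genes is positive for the shortest genes and negative for long ones, and most subunits lie above it.

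Other abundant housekeeping complexes were shifted likewise. The 77 genes of cytosolic ribosomal proteins, a list chosen after values were seen, had median log2 ratios of 1.30 between the wild-type bones, -0.77 between the parietal genotypes, 0.05 between the frontal genotypes and 0.50 between the Twist1+/- bones. Beside these stand 1.17, -0.46, 0.09 and 0.60 for the subunits. The 74 mitochondrial ribosomal proteins had 0.65 and the 39 proteasome subunits 0.53 between the wild-type bones, and -0.48 and -0.55 between the parietal genotypes. The 8 osteoclast markers, among them Ctsk and Acp5, had 1.64 and -0.42, and 0.85 between the Twist1+/- bones. They summed to 2614, 9181, 3259 and 6717 FPKM, in the same order of libraries as the subunits. Ctsk and Acp5 made up most of each sum, and single markers differed. Between the parietal genotypes 4 of the 8 were lower in the labelled library by more than 1.5-fold, against 23.8% of all genes. Mmp9 was higher there, at 747 FPKM in wild type and 971 in the labelled library. Dcstamp and Atp6v0d2 were lower in Twist1+/- than in wild-type frontal bone. The part of transcript length and of osteoclasts in the levels of the subunits was not tested.

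In the parietal comparison GC content moved with the ratio. Over 12554 genes the ratio of the parietal library with the Twist1+/- label to wild-type parietal bone had a Spearman's rho of 0.55 with the GC content of the transcript, and over the 79 subunits rho was 0.49. Both are descriptions across genes of the same 2 libraries, and genes are not independent replicates. Ndufs7, with 59.6% GC, was among the higher subunits and Uqcrc2, with 44.3% GC, among the lower. Other subunits lay near the subunit median of 52.1% GC. Among the lower were Atp5c1 (50.2%) and Atp5o (53.8%), and among the higher was Cox5a (50.9%). With the median of genes of similar GC content subtracted, the median of the subunits was -0.41 in place of -0.46. Subtracting that of genes of similar length and level, which include the subunits themselves, left -0.05.

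**Figure D5:**
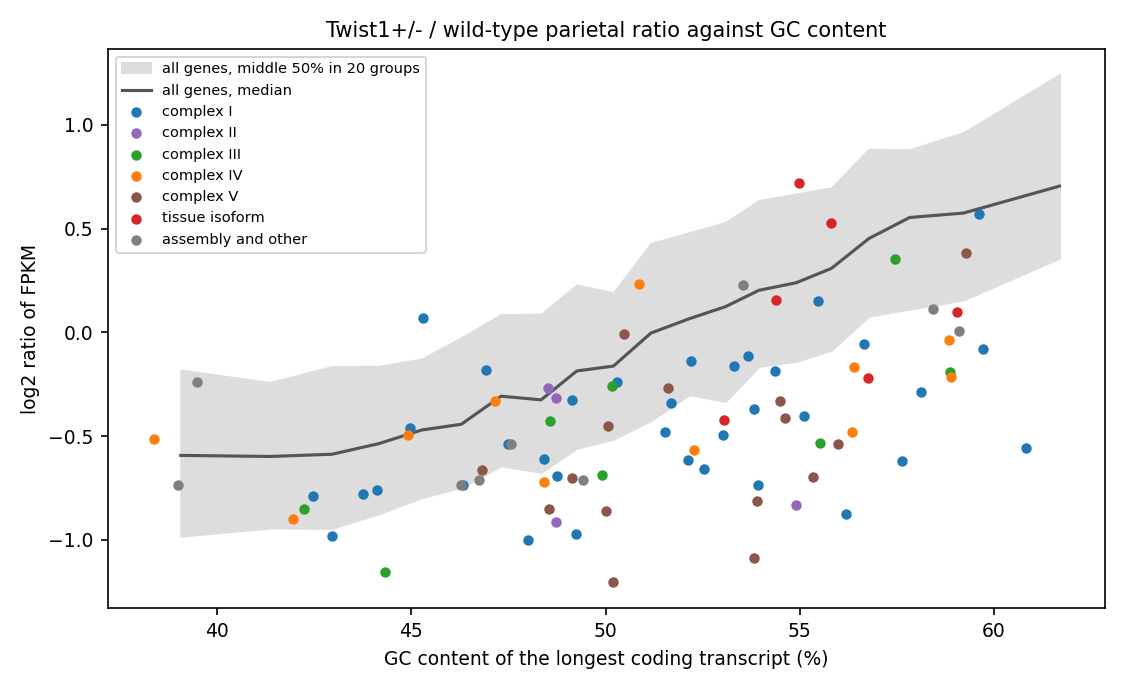
Log2 ratio of FPKM in the parietal library with the Twist1+/- label against wild-type parietal bone (vertical) against transcript GC content in % for each gene, with the median and the middle 50% of all genes in 20 groups by GC content. The median of all genes rises with GC content, and most subunits lie below it.

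Ndufs5, an accessory subunit of complex I, stood apart from the rest. It was listed at 15.7 FPKM (wild-type frontal), 0.00384 (wild-type parietal), 0.0449 (Twist1+/- frontal) and 0.0113 (labelled Twist1+/- parietal). The gene lies at chr4:123389953-123395445 in mm9 (minus strand), with 43.6% of 75-base windows of the transcript found again elsewhere in the genome. A value near 0 can be a failed estimate, which was not tested here, and the other 35 complex I subunits were between 3.24 and 706 FPKM in every library. No fold is given for it, and no direction is drawn from it.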

How the data were processed

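Bulk RNA-seq of frontal and parietal bone from wild-type and Twist1+/- mice was analysed, with 1 library per genotype and bone. Per the labels and the study's methods, the authors captured poly(A) RNA, aligned single-end reads of 75 bases to mm9 with STAR (2.4.2a) and deposited FPKM values per gene from Cuffdiff (Cufflinks 2.2.1). The scaling option is not given in the sources used here. The study's methods give read depth only as an average per replicate, so the depth of each library is unknown. Those methods speak of replicates, but each genotype and bone had 1 column of FPKM values here. Libraries were grouped by their sample labels.

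Ratios of FPKM were formed as log2 values without a pseudocount for genes at or above 1 FPKM in the higher library. A gene was counted when past 3-fold, or past 1.5-fold. No test was possible. The members and lists were chosen with earlier results of these data known. Genes named were all tissue isoforms and their counterparts, Atp5g genes, members past 3-fold and the highest and lowest subunit of each complex by mean FPKM. The 3 largest rises and falls at or above 10 FPKM in each of the 4 comparisons were named too. Others, among them Atp5d, Cox5a, Ndufb10 and genes of the comparison lists, were named after their values were seen. Transcript length, GC content and positions came from GENCODE M1 (mm9), where 80.8% of genes had a coding transcript, and 75-base windows were searched in the genome for exact copies. Promoters came from RefSeq (GRCm38.p6). Trends were subtracted as the median of genes in 20 groups by 1 property, or in 10 by 10 groups by length and level. The subunits stayed in these groups, so part of their own shift can be taken away. Calculations used Python 3.11.15, numpy 2.4.6 and pandas 2.3.3 and were tested on simulated data. The first simulated set lay at the extreme of a property, where the subtraction took away most or all of the shift put in. The test was then set at the subunits' own lengths and levels, with only the subunits shifted and no other genes moving with them.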

Additional observations from a re-analysis of the deposited data

Results flagged for a closer look

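The median log2 ratio of subunits between the genotypes had opposite signs in the bones, -0.46 in parietal bone and 0.093 in frontal bone. Of 79 subunits, 49 were lower in the parietal library with the Twist1+/- label and higher in Twist1+/- frontal bone than in wild type. A further 20 were lower in both, 7 were higher in both and 3 were higher in parietal and lower in frontal bone. The difference between the bones was not tested, since each value rests on 1 library per genotype, and the Twist1 level of the parietal library with the Twist1+/- label was near that of wild type.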

How the results depend on the processing

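Of the 44 other values of the median ratio of subunits, none changed sign, and 34 stayed within 0.1 of the value reported. Subtracting the trend with length moved the median to -0.24 between the parietal genotypes, 0.44 between the wild-type bones and 0.17 between the Twist1+/- bones. Subtracting the trend with level gave -0.14, 0.37 and 0.16, and subtracting both, chosen after seeing the data, gave -0.051, 0.21 and 0.081. Leaving out subunits with windows found elsewhere, also chosen after seeing the data, left 49 subunits and -0.34 between the parietal genotypes. Members past 3-fold numbered 1 between the parietal genotypes, 5 between the frontal genotypes and 2 between the Twist1+/- bones without a floor, where values near 0 enter. A 2-fold threshold gave 4 between the parietal genotypes, 53 between the wild-type bones and 4 between the Twist1+/- bones, and a 1.5-fold threshold gave 37, 77 and 44, with 5 between the frontal genotypes. Of 444 other values for named members 443 kept their call, and with a pseudocount of 1 FPKM the ratio of Atp5l between the wild-type bones was 1.29. No paired analysis was possible because each group had 1 library and the labels give no replicate numbers. No library could be left out for the same reason, and the absence of replicate values and of a depth for each library limits every value.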
